A study of Rattus norvegicus with 24 samples.

Results

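The 14 libraries from tissue punches of the nucleus accumbens (NAC), out of 24 libraries in the series, were ordered by their transthyretin (Ttr) transcript level to describe how much ventricular tissue RNA each held. The 4 libraries at each end were chosen by their Ttr level and set against each other, and every gene with a mean of at least 0.5 CPM was ranked by its Spearman correlation with Ttr over the 14 libraries. CPM is the estimated count of a gene per 1e6 estimated counts of the library. Because Ttr of these same libraries fixed the order, every value along it is a description without a test.

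The rats were male offspring, at least 60 days old, of fathers that had self-administered saline (SAL-sired) or morphine (MOR-sired) for 60 days, and they carry no genetic change in the labels. The bilateral NAC punches gave 7 libraries for each kind of sire, and punches of the ventral tegmental area (VTA) gave 5 for each. The labels call them biological replicates but name neither animal nor litter, so p-values measure the spread between libraries. NAC totals ran from 21.9 to 41.3 M estimated counts (M is 1e6), and the rank correlation of the total with Ttr was 0.04. The dopamine receptor Drd1, a mark of striatal projection neurons, was present in all 14 NAC libraries at 18.6 to 246 CPM, against 1.22 to 1.75 CPM in VTA. The dopamine-synthesis enzyme Th ran from 0.685 to 1.87 CPM in NAC and from 1293 to 2881 CPM in VTA. In 4 VTA libraries, MOR-sired 3, 4 and 5 and SAL-sired 5, the X-inactivation transcript Xist stood at 78.9 to 108 CPM and the Y-linked Ddx3y at 0.072 CPM or less, against their label as male. The VTA correlations are therefore given with and without them. In all 14 NAC libraries Xist was at 0.228 CPM or less.

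The choroid plexus is a folded epithelium inside the brain ventricles that secretes cerebrospinal fluid and carries thyroid hormone, retinol and folate from blood into it. Ttr, the carrier of thyroxine and of retinol-binding protein, is among its most abundant transcripts, while most other brain cells make little of it. Ependymal cells line the ventricle walls and bear motile cilia, and the subventricular zone of dividing progenitors lies beneath them. The accumbens lies close to the anterior tip of the lateral ventricle, with septal tissue at its medial side and cortex around it.

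Ttr differed by 1395-fold between the highest and the lowest NAC library. In rising order it was 0.594 CPM in MOR-sired 4, 0.891 CPM in SAL-sired 1, 1.28 CPM in MOR-sired 1 and 3.37 CPM in SAL-sired 3, the 4 lowest. The middle 6 were MOR-sired 2 at 5.19, SAL-sired 2 at 8.51, MOR-sired 6 at 9.48, MOR-sired 3 at 14.7, SAL-sired 4 at 26.6 and SAL-sired 5 at 28.4 CPM. The 4 highest were MOR-sired 7 at 141, MOR-sired 5 at 357, SAL-sired 6 at 783 and SAL-sired 7 at 828 CPM. The step from the fifth to the fourth highest library was 4.98-fold, the lower end was separated only by the step from 3.37 to 5.19 CPM, and both ends held 2 SAL-sired and 2 MOR-sired libraries.

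Ttr did not differ between the sire groups beyond the spread of their libraries. On the log2(CPM + 1) scale SAL-sired libraries averaged 5.04 ± 3.45 (SD, n = 7) and MOR-sired libraries 3.93 ± 2.92 (SD, n = 7). The difference of -1.11 had a two-sided exact permutation p of 0.522, where 7 against 7 can reach 0.000583. The library numbers in the labels, whose meaning is not given, moved with the order: all of the 4 highest were among libraries 9 to 14, against 1 of the 4 lowest, and the rank correlation of Ttr with library number was 0.65. Within libraries 1 to 8 the difference between sire groups was -0.59 with an exact permutation p of 0.589, and within libraries 9 to 14, where 2 SAL-sired stand against 4 MOR-sired, it was -4.73 with an exact permutation p of 0.133, in a design that cannot go below 0.0667. The part of library number in the Ttr order was not tested.

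**Figure D1:**
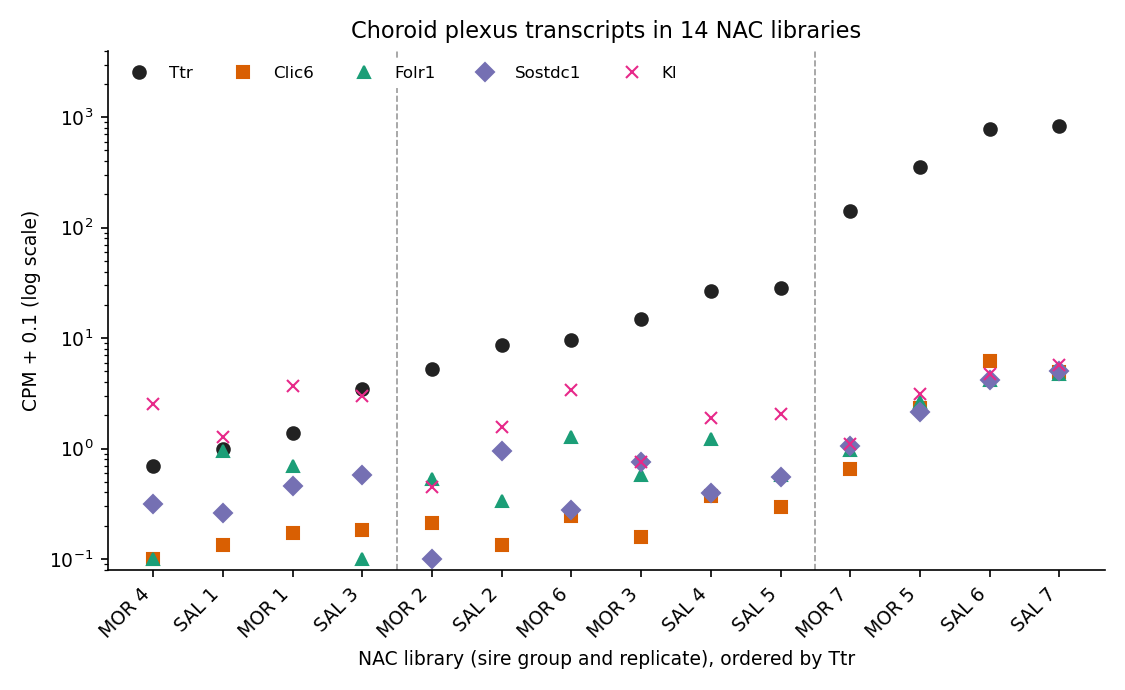
Levels of Ttr, Clic6, Folr1, Sostdc1 and Kl in the 14 NAC libraries, in CPM plus 0.1 on a log axis, ordered by Ttr, with 1 point per library and gene and dashed lines around the 4 lowest and the 4 highest. Clic6, Folr1 and Sostdc1 stand highest in the 3 libraries at the right, while Kl overlaps between the ends.

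The choroid plexus list of 24 genes followed Ttr as a group. Ttr itself is on the list and its place was fixed by the order. Of the other 23 genes, 22 had a positive rank correlation with Ttr, and 10 stood higher in each of the 4 high libraries than in any of the 4 low ones; none stood lower. Among all 31005 genes with any count, 1.52% stood higher in this way. The list median of the correlation over the 17 members other than Ttr with a mean of at least 0.5 CPM was 0.59, and it was 0.60 with Ttr counted (leave-one-library-out standard error 0.20), beside -0.02 over the 17900 genes with that mean. Several members, such as Sostdc1 and Clic6, reach that mean only through the high libraries, so list counts are given without that limit. Over all 23 the median was 0.59 as well. In such bulk tissue more cells of a type and more RNA per cell cannot be told apart.

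Among receptors and carriers, Folr1, the folate receptor that brings folate into cerebrospinal fluid, was at 0.870, 2.55, 4.05 and 4.61 CPM in the 4 high libraries in rising order of Ttr. In the other 10 it ran from 0 to 1.18 CPM with a median of 0.475 CPM, so MOR-sired 7 lay inside that range and the other three high libraries above it. Its correlation with Ttr was 0.75. Slco1a5, an organic anion transporter, was at 0.253 to 0.881 CPM in the 4 high libraries and at no more than 0.132 CPM elsewhere. Its correlation of 0.90 was the highest on the list after Ttr itself, at levels below 1 CPM. Prlr, the prolactin receptor, stayed between 0.044 and 0.733 CPM over all 14 with a correlation of 0.29.

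Among transporters of ions and water, Clic6 alone separated all 4 high libraries from the other 10. Clic6, an intracellular chloride channel protein, was at 0.546, 2.24, 6.08 and 4.84 CPM in the 4 high libraries, and the other 10 ran from 0 to 0.272 CPM with a median of 0.079 CPM. Its correlation with Ttr was 0.89. Kcnj13, an apical potassium channel, was at 0.511, 1.68, 2.05 and 2.55 CPM against 0.044 to 0.641 CPM in the other 10. Aqp1, the water channel of the apical membrane, was at 0.853, 1.43, 2.82 and 3.78 CPM against 0.222 to 0.895 CPM. For both, MOR-sired 7 lay within the range of the lower libraries and the 3 libraries with the most Ttr above it. Kcne2, a potassium channel subunit, reached 2.25 to 3.94 CPM against 1.17 to 2.74 CPM, and Slc4a5, a sodium bicarbonate cotransporter, 0.422 to 1.80 CPM against 0.118 to 1.09 CPM. Slc13a4, a sulfate transporter, was 10.9 CPM in SAL-sired 7 and between 3.13 and 5.86 CPM in the others. Car12, a membrane carbonic anhydrase, was the member that did not follow: it was highest in MOR-sired 4, the library with the least Ttr, at 115 CPM, and lowest in MOR-sired 7 at 19.2 CPM, with a correlation of -0.13.

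The promoter sequences of Aqp1 and Kcnj13, whose levels step up together in the same 3 libraries, and of the cilia gene Cfap144 described further on, are shown with one searched motif in capitals. They are RefSeq sequences of assembly GRCr8, the 250 bases before the annotated start, 5′ to 3′ on the strand of the gene. Aqp1 lies on the plus strand at chr4:85812534-85812783, Kcnj13 on the minus strand at chr9:95518987-95519236 and Cfap144 on the minus strand at chr10:44019282-44019531. Capitals mark GTTGCC, a core of the sites bound by RFX factors of ciliated cells, on either strand.
Aqp1: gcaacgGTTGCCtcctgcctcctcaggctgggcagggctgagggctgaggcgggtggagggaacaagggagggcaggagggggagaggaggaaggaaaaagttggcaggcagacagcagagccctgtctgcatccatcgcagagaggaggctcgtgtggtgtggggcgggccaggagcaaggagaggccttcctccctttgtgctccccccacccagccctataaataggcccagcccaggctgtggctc
Kcnj13: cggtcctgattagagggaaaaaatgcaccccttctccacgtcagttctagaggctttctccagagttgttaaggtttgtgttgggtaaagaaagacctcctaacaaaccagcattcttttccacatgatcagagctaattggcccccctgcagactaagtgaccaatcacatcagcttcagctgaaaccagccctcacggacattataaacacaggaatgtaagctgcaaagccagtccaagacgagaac
Cfap144: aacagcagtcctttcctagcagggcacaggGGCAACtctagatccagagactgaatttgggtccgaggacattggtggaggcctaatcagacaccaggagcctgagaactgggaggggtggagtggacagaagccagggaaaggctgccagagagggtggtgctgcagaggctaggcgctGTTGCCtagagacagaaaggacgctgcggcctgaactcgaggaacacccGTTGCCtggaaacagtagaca
Aqp1 held the motif at base -244, Kcnj13 had no match, and Cfap144 held it at -220 on the opposite strand and at -70 and -21 as spelled, counted back from the start. GTTGCC on either strand was present in 9.89% of 33469 rat promoters of this length, in 1 of the 18 entries that matched 17 genes of the choroid plexus list, and in 11 of the 33 entries that matched 24 genes of the cilia list. The forkhead motif TGTTTAC was in 3.21% of all promoters, 0 of 18 and 4 of 33, and the OTX motif TAATCC in 6.34%, 1 of 18 and 1 of 33. The 3 motifs do not overlap in sequence, and a match is a stretch of letters, not a measured site.

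Of secreted proteins, junction proteins and transcription factors of the choroid plexus, Sostdc1, Cldn2, Otx2 and F5 stood highest in the 3 libraries with the most Ttr. Cldn1, Msx1 and Enpp2 did not separate these 3 from the others. Sostdc1, a secreted inhibitor of BMP and Wnt signals, was at 0.943, 2.04, 4.12 and 4.93 CPM against 0 to 0.848 CPM in the other 10, with no overlap and a correlation of 0.76. Cldn2, the tight junction claudin of this leaky epithelium, was at 0.172, 0.760, 2.70 and 2.67 CPM against 0.096 CPM or less. Cldn1, a second claudin, overlapped, at 0.364 to 0.606 CPM against 0.033 to 0.516 CPM. Otx2, the homeobox factor that choroid plexus needs to form, was at 0.548, 0.815, 1.31 and 1.51 CPM against 0.331 to 0.696 CPM. The coagulation factor F5 ran from 0.407 to 1.62 CPM against 0.128 to 0.394 CPM, and the homeobox factor Msx1 from 1.56 to 3.55 CPM against 0.746 to 2.15 CPM. Enpp2, the lysophosphatidic acid enzyme autotaxin, which oligodendrocytes also make, was abundant everywhere, at 107 to 126 CPM against 78.0 to 119 CPM.

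Kl, which encodes the hormone coreceptor klotho, was chosen as a marker but did not follow the order below its top. It was at 0.994, 3.01, 4.65 and 5.60 CPM in the 4 high libraries and from 0.350 to 3.58 CPM in the other 10, where MOR-sired 1, with 1.28 CPM of Ttr, held 3.58 CPM. Its correlation with Ttr was 0.31 over the 14 libraries and -0.30 over the 11 without the 3 richest in Ttr. The remaining members were Tmem72, Krt18, Col8a1, Steap1 and Abca4, with correlations of 0.23, 0.50, 0.59, 0.42 and 0.23.

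Relative to Ttr, MOR-sired 7 held less of most of these transcripts than the other high libraries did, though by little for Sostdc1 and not for Aqp1. The surplus of each gene was taken as its CPM minus the median of the 10 lower libraries, per 1000 CPM of surplus Ttr. For Sostdc1 it was alike in the 4 libraries, from 4.59 CPM in MOR-sired 7 to 5.61 CPM. For Clic6 it was 3.48 CPM in MOR-sired 7 and 5.80 to 7.73 CPM in the other three, and for Cldn2 0.966 CPM against 2.05 to 3.42 CPM. For Folr1 it was 2.94 CPM against 4.61 to 5.92 CPM, and for Aqp1 2.93 CPM, within the 2.79 to 4.04 CPM of the others. For Kcnj13 it was 1.56 CPM against 2.26 to 3.94 CPM. For Mfrp, a gene outside the list described further on, it was 4.82 CPM against 7.20 to 8.72 CPM. For Kl the surplus in MOR-sired 7 was below 0, against 3.28 to 4.55 CPM in the other three. Surpluses of MOR-sired 7 are small differences between low values.

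**Figure D2:**
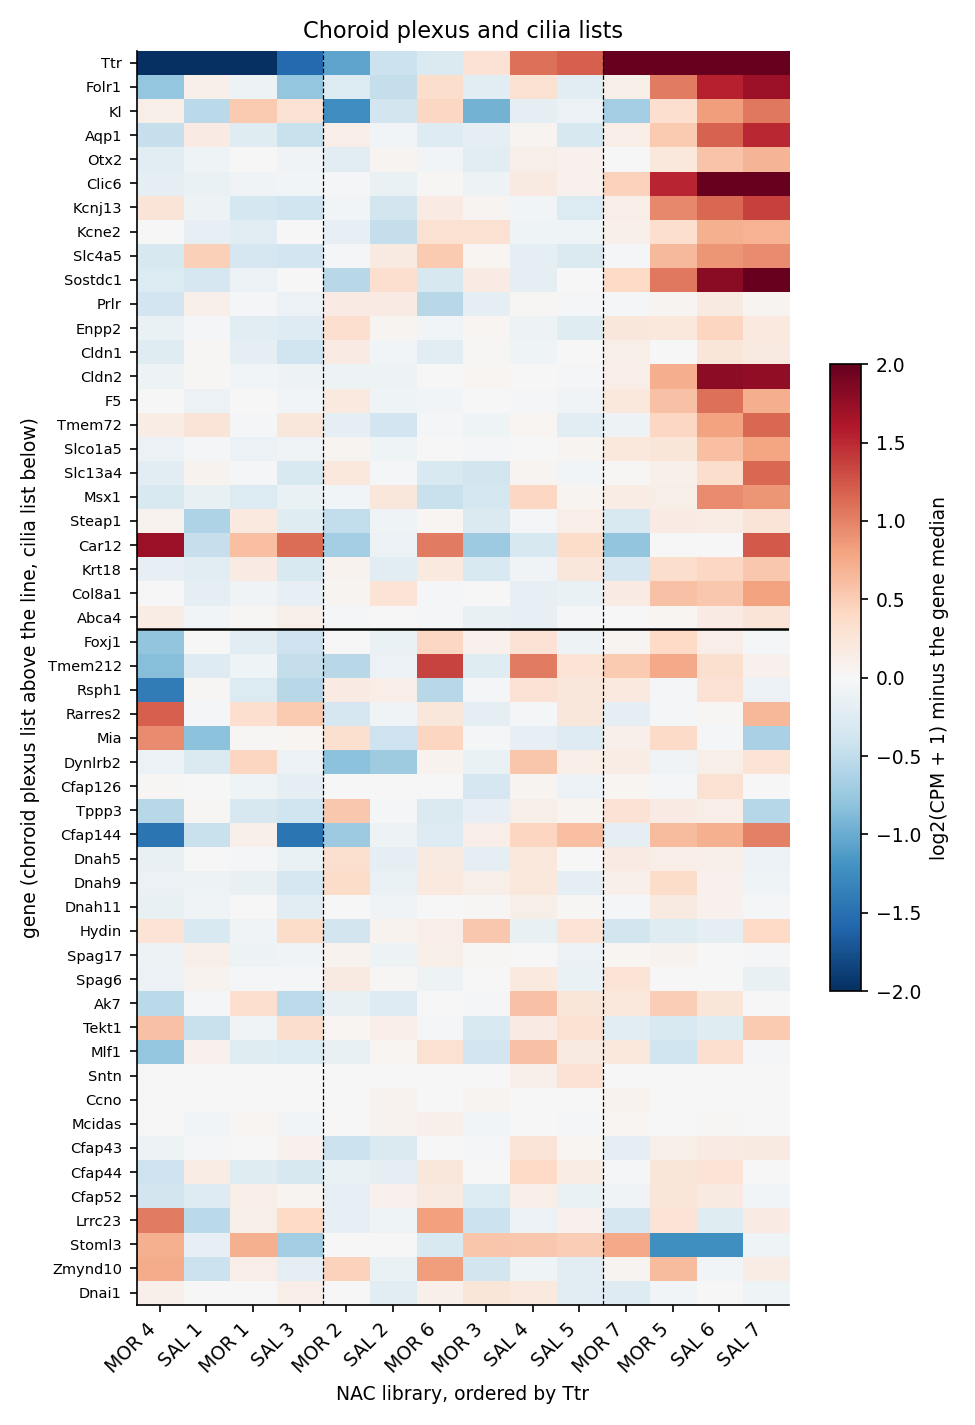
Level of each gene of the choroid plexus list (above the line) and the cilia list (below) in the 14 NAC libraries ordered by Ttr, as log2(CPM + 1) minus the gene's median, with colours cut at 2 in each direction. The 3 columns at the right are red in most choroid plexus rows, while the cilia rows show no such block.

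The separation rested on the 3 libraries with the most Ttr, MOR-sired 5, SAL-sired 6 and SAL-sired 7, a grouping made after seeing the values. In 14 of the 23 choroid plexus genes other than Ttr these 3 stood above all 11 others, where 0.3% of the 31005 genes with any count did so. Without them the list median of the correlation, Ttr left out, was 0.17, with Clic6 still at 0.78, Folr1 at 0.48, Sostdc1 at 0.51, Aqp1 at 0.17 and Kcnj13 at 0.15. Within libraries 1 to 8 the list median was 0.05, and within libraries 9 to 14 it was 0.89. Taken by sire group, it was 0.71 over the 7 SAL-sired libraries and 0.43 over the 7 MOR-sired libraries. In the 10 lower libraries the median level of 17 of the 24 genes was below 1 CPM.

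Besides Ttr, 21 genes with a symbol had a mean in those 3 libraries at least 2-fold that of the 11 others. They also stood above each of the 11, and at 0.2 CPM or more in all 3. LOC, RGD and AABR identifiers were left out of this count. Of the 21 genes, 12 were on the choroid plexus list. Outside the list, Mfrp, which encodes a frizzled-related membrane protein, was at 2.77, 6.12 and 7.42 CPM against at most 0.904 CPM in the others, a 16.6-fold ratio of means. It was at 0.904 CPM in MOR-sired 7 and at 0.123 to 0.406 CPM in the other 10, and its correlation with Ttr was 0.61. Clic6 had a ratio of 31.1 and Ttr of 30.0 between the same means. Glycam1, a secreted mucin-like protein, was at 0.220, 1.76 and 0.817 CPM, at 0.192 CPM in MOR-sired 7 and at 0 in the other 10. Pla2g5, a secreted phospholipase, was at 1.34 to 1.78 CPM against 0.310 to 0.956 CPM in the 10 lower libraries. Cfap144, Fabp1, Snora54, Spetex-2Fl1, 2610318N02Rikl and Or7c70 made up the rest, and Snora54 is a small RNA whose level such length-scaled counts raise.

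Over all genes the order held few followers. Of the 17900 genes with a mean of at least 0.5 CPM, 52 (0.291%) had a correlation with Ttr of at least 0.7 and 36 (0.201%) of at most -0.7. Among genes with a symbol, Cox7a2 and Icam1 at 0.701 lay just inside the upper limit, and Spry2 and Gpr183 at 0.697 just outside it. Between the ends, 281 (1.57%) stood higher in every high library than in any low one, and 320 (1.79%) stood lower. The counts moved when a library was left out: without SAL-sired 7, 159 genes were at or above 0.7 and 229 at or below -0.7.

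The 15 closest positive followers with a symbol were Clic6, Wnt5b, Gadl1, Cfap144, Mdk, Tagln2, Ceacam4, Gpr143, S100a8, Elob, Ms4a4a, RT1-O1, Cchcr1, Sostdc1 and Fgd2, with correlations from 0.89 down to 0.76. Wnt5b, a secreted Wnt ligand, had a correlation of 0.89 and was at 3.17 to 3.35 CPM in the 4 high libraries against 1.56 to 3.13 CPM in the other 10, a narrow step next to that of Clic6. Mdk, the growth factor midkine, was at 68.7, 80.0, 88.7 and 78.3 CPM against 50.3 to 64.7 CPM, with no overlap. S100a8, a calcium-binding protein of neutrophils, was at 0.941 to 1.32 CPM against 0 to 1.01 CPM. RT1-O1 and Ceacam4 belong to families with similar copies, whose shares in the estimated counts are uncertain.

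The upward differences between the ends were largest in Clic6, Ceacam4, Sostdc1, Mfrp, Igfbp2, Folr1, Snord12, Cyp11b1, Adra1d, Fcrl2, Calca, Grp, Atoh7, Scarna10 and Igf2, after Ttr itself. Igf2, a growth factor of choroid plexus and meninges, was at 11.8, 10.8, 15.9 and 29.2 CPM against 6.55 to 10.1 CPM in the other 10. Igfbp2, a binding protein for such growth factors, was at 20.6 to 42.2 CPM in the 4 high libraries and 5.90 to 24.6 CPM in the rest. Adra1d, an alpha-1 adrenergic receptor, Calca, which encodes calcitonin gene-related peptide, and Grp, which encodes gastrin-releasing peptide, differed between the ends only: in each the highest of the middle libraries was at or above most of the 4 high ones, with correlations of 0.42, 0.46 and 0.46.

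The lowest correlations went with small differences. Ip6k3, an inositol hexakisphosphate kinase, had the lowest correlation, -0.90, with a mean of 0.675 ± 0.116 CPM (SD, n = 4) in the high and 1.33 ± 0.339 CPM (SD, n = 4) in the low libraries. Piwil2, a piRNA-binding protein, was at 1.80 ± 0.063 CPM and 2.53 ± 0.301 CPM, and Bsdc1 at 64.9 ± 1.06 CPM and 71.4 ± 1.61 CPM. Ago1, Mbtps2, Immp2l, Ppp6r3, Sla2, Ptk2b and Dcp1b followed, at -0.85 to -0.78. The largest downward steps between the ends included Kcnn4, a calcium-activated potassium channel, at 0.664 to 1.19 CPM against 1.75 to 2.04 CPM, and Trpc7, a cation channel, at 4.58 to 6.49 CPM against 6.94 to 9.70 CPM. Relative to their level the largest were in scarce transcripts: Dlg5l4 was at 0 to 0.359 CPM against 0.808 to 1.23 CPM, and the histone gene Hist1h2af at 0 to 0.801 CPM against 1.10 to 2.47 CPM. Pargl2 was at 0.096 to 0.680 CPM against 0.899 to 1.90 CPM. Cyp2s1, Slc10a6 and 3 near-identical copies of 5S ribosomal RNA genes, Rna5s13, Rna5s7 and Rna5s6, with the same values in every library, completed that group.

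The ependymal and motile cilia list followed Ttr less closely over the 14 libraries than the choroid plexus list did, by the list medians, a difference that was not tested. Of 30 listed genes 28 were in the table, and 20 of the 28 had a positive correlation. The median over the 20 members with a mean of at least 0.5 CPM was 0.33 (leave-one-library-out standard error 0.14). Over all 28 it was 0.26. The mean log2(CPM + 1) of the list had a correlation of 0.66. Of the 28, 2 genes, Tmem212 and Dnah9, were higher in every high than in any low library, beside 1.52% of genes with any count, and none was lower. Of the lists described further on, 2 of 14 oligodendrocyte genes and 2 of 12 cortical glutamatergic genes stood higher in the same way. Summed over the list, cilia transcripts ran from 188 to 207 CPM in the high and from 165 to 261 CPM in the low libraries. Rarres2 at 95.9 CPM and Lrrc23 at 64.9 CPM made up most of the 261 CPM, which was in MOR-sired 4. In that library Foxj1 was at 1.80 CPM, and Tmem212 and Cfap144 were at 0, so the sum does not rank the libraries by these cilia genes. Tmem212, a membrane protein of ependymal cells, was highest in MOR-sired 6 at 3.61 CPM and SAL-sired 4 at 2.70 CPM, which held 9.48 and 26.6 CPM of Ttr. In the 4 high libraries it was at 1.59, 2.06, 1.26 and 0.910 CPM, and in the 4 low ones at 0 to 0.714 CPM, with a correlation of 0.67, or 0.71 without the 3 libraries richest in Ttr. Foxj1, the factor that switches on motile cilia genes, was highest in the same MOR-sired 6 at 5.47 CPM and in MOR-sired 5 at 5.41 CPM, lowest in MOR-sired 4 at 1.80 CPM, and at 2.65 to 4.90 CPM elsewhere, with a correlation of 0.54, or 0.61 without those 3. Cfap144, a microtubule protein of cilia, came closest to Ttr, with a correlation of 0.84. It was at 1.43, 3.30, 3.55 and 4.58 CPM in the 4 high libraries and from 0 to 3.20 CPM in the others.

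The axonemal dyneins Dnah9, Dnah11 and Dnah5 had correlations of 0.35, 0.59 and 0.25, the radial spoke gene Rsph1 0.49, and the cilia genes Ak7, Cfap43, Cfap44 and Cfap52 0.46 to 0.65. Dynlrb2, Tppp3, Cfap126, Mlf1 and Zmynd10 had correlations of 0.46, 0.32, 0.27, 0.38 and 0.07. Rarres2, Mia, Hydin, Spag6, Tekt1, Lrrc23, Stoml3 and Dnai1 were below 0, from -0.04 to -0.33. Spag17, Sntn, Ccno and Mcidas never exceeded 0.251 CPM. The cilia list median was 0.41 over the SAL-sired libraries, 0.13 over the MOR-sired libraries, and -0.03 within libraries 9 to 14, where the choroid plexus list stood at 0.89. With 6 libraries in that subset, both medians are descriptions.

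**Figure D3:**
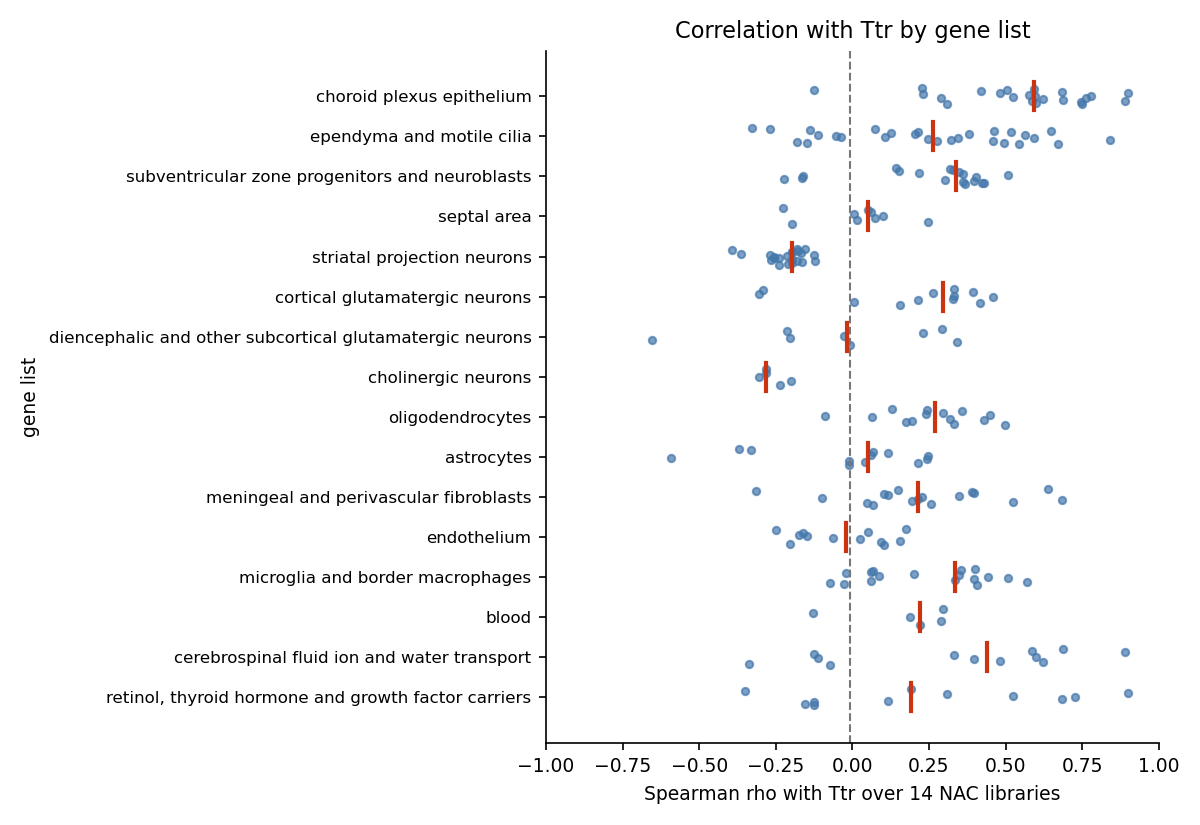
Spearman correlation with Ttr over the 14 NAC libraries for each gene of the 16 lists, 1 point per gene with any count (Ttr itself left out), with the list median as a red bar and the median of all genes as a dashed line. The choroid plexus list lies farthest to the right, and all 22 striatal genes lie left of 0.

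In neighbouring tissues the list medians were lower than that of the choroid plexus list over the 14 libraries, but not in every subset. Of the 18 genes of subventricular progenitors and neuroblasts, the 17 with a mean of at least 0.5 CPM had a median correlation of 0.35. No gene of the list was separated between the ends. The median of 0.35 was lowered by SAL-sired 7: without that library it was 0.62. It then exceeded the 0.49 of the choroid plexus list without Ttr in the same 13 libraries. It was also the higher of the 2 lists without the 3 libraries richest in Ttr, 0.40 against 0.17, and in MOR-sired libraries alone, 0.68 against 0.43, but not over the SAL-sired ones, 0.07 against 0.71. The neuroblast gene Dcx was at 17.8, 20.5 and 21.9 CPM in MOR-sired 7, MOR-sired 5 and SAL-sired 6, but at 6.43 CPM in SAL-sired 7, near the lowest library at 5.62 CPM. The proliferation gene Mki67 was at 2.85, 4.21, 3.83 and 1.58 CPM in the same 4, against 1.35 to 3.18 CPM. The 9 septal genes had a median of 0.05, and the septal factor Zic1 was at 4.92 to 7.46 CPM in the high libraries against 4.97 to 13.2 CPM in the others.

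All 22 genes of striatal projection neurons had negative correlations, with a median of -0.20, and 10 of 12 genes of cortical glutamatergic neurons had positive ones, with a median of 0.29. Drd1 was at 24.4, 52.6, 70.5 and 153 CPM in the 4 high libraries and at 58.6 to 246 CPM in the 4 low ones. The cortical glutamate transporter Slc17a7 was at 1337, 1220, 1060 and 609 CPM in the high libraries and at 111 to 1287 CPM in the low ones. Both genes overlapped between the ends, while the cortical factor Fezf2 did not, with at least 12.09 against at most 12.05 CPM. The direction of both lists turned with the order and the subset: ordered by Folr1, Kl and Aqp1 the medians were 0.21 and -0.24, and in the SAL-sired libraries alone 0.29 and -0.14. Summed over the list, striatal transcripts ran from 1447 to 8235 CPM in the high and from 2697 to 11553 CPM in the low libraries.

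The 12 genes of cerebrospinal fluid ion and water transport, 6 of them also on the choroid plexus list, had a median correlation of 0.44. Of the 12, 4 were higher in every high than in any low library, beside 1.52% of genes with any count. Among the 4 were Clic6, Kcne2 and Car2, a cytosolic carbonic anhydrase. The ion transporters Slc12a2 and Slc4a10 had correlations of -0.07 and -0.34. Of the 12 genes of retinol, thyroid hormone and growth factor carriers, the 11 with a mean of at least 0.5 CPM had a median of 0.19, or 0.15 without Ttr. Besides Ttr, 4 of the 11 other listed genes were separated upward, beside 1.52% of genes with any count: Slco1a5, Enpp2, Igf2 and Igfbp2. The retinol-binding protein Rbp4 and the retinol receptor Stra6 had correlations of -0.16 and -0.13.

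Of the 8 genes of diencephalic and other subcortical glutamatergic neurons, the 7 with a mean of at least 0.5 CPM had a median of -0.01. The 5 cholinergic genes had a median of -0.28, the 14 oligodendrocyte genes 0.27, the 12 astrocyte genes 0.05 and the 12 endothelial genes -0.02. Over members with that mean, the median was 0.27 for microglia and macrophage genes and 0.20 for blood genes. Mbp, the myelin basic protein, was at 5281 to 6236 CPM in the high and 4493 to 5228 CPM in the low libraries, 1 of 2 oligodendrocyte genes that stood higher in this way. Gja1, an astrocyte gap junction protein, was the only 1 of the 12 astrocyte genes lower in every high library, at 187 to 205 CPM against 210 to 235 CPM. Among the 17900 genes with a mean of at least 0.5 CPM, 1.79% were lower in this way. Of the astrocyte genes, 7 had a positive correlation. Of the 17 meningeal and perivascular fibroblast genes, the 14 with a mean of at least 0.5 CPM had a median of 0.17. SAL-sired 7, the library with the most Ttr, stood apart in them: the collagen gene Col1a2 was at 12.2 CPM against 3.54 to 5.92 CPM in the other 13, Col1a1 at 6.54 CPM against 1.99 to 3.87 CPM, and Ptgds, a prostaglandin synthase of the meninges and oligodendrocytes, at 986 CPM against 385 to 609 CPM. SAL-sired 6, with almost as much Ttr, had 5.38 CPM of Col1a2.

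No gene of these lists passed edgeR's test between sire groups in NAC. With the quasi-likelihood test and Benjamini-Hochberg adjustment over 18220 genes, 0 were called at an adjusted p under 0.05 (0%), with 1126 at an unadjusted p under 0.05 and 4 called by DESeq2. Of the choroid plexus list 17 were tested, and 15 had a lower estimate in MOR-sired libraries, beside 9196 of all 18220 tested genes. The list's median log2 fold change was -0.47, beside -0.00115 over all tested genes. The smallest adjusted p on the list was 0.621. Ttr itself had a log2 fold change of -1.67 (SE 1.53, edgeR adjusted p 0.978), Folr1 -0.92 (SE 0.86) and Aqp1 -1.01 (SE 0.60). Without the 3 libraries richest in Ttr, of which 2 are SAL-sired, the log2 fold change of Ttr was 1.07 with an edgeR adjusted p of 1, and without the 4 richest it was -1.15 with an edgeR adjusted p of 0.986. With Ttr as a covariate 0 genes were called, with 1350 at an unadjusted p under 0.05. Of the cilia list 21 genes were tested, 11 had a lower estimate in MOR-sired libraries, and the median log2 fold change was -0.000162. The smallest edgeR adjusted p on that list was 0.560.

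The VTA libraries were not used for the order and allowed a test of whether the same genes vary with Ttr in another region. Ttr ran from 2.15 to 43.6 CPM there, a 20.3-fold range, with the highest levels in SAL-sired 4 at 43.6 CPM, SAL-sired 1 at 39.7 CPM and SAL-sired 2 at 20.6 CPM and a median of 5.54 CPM. Of the genes fixed for it, Kl, Otx2, Kcnj13, Clic6 and Foxj1, had a mean of at least 0.5 CPM in VTA and formed a family of 5. None passed after Benjamini-Hochberg adjustment over the 5. Kcnj13 came nearest: it was at 1.23, 5.64 and 2.52 CPM in those 3 libraries and at 0.109 to 0.911 CPM in the other 7. Its Pearson r with Ttr on the log2(CPM + 1) scale was 0.77 (permutation p 0.0103, adjusted 0.0517) and its Spearman rho 0.50 (permutation p 0.142, adjusted 0.352). Without the 2 libraries farthest from the median of Ttr, r was 0.77 (permutation p 0.0579) and rho 0.10 (permutation p 0.840).

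Clic6 in VTA was at 1.84, 1.26 and 0.849 CPM in the 3 libraries richest in Ttr and at 0.106 to 1.18 CPM in the others. Its r was 0.54 (permutation p 0.111, adjusted 0.277) and rho 0.22 (permutation p 0.537, adjusted 0.537), and without the 2 farthest libraries r was -0.12. Kl had r 0.39 (permutation p 0.276, adjusted 0.460) and rho 0.38 (permutation p 0.281, adjusted 0.352), and r 0.21 without the 2 farthest libraries. Otx2, which is also a midbrain factor and was at 2.95 to 8.13 CPM in VTA, had r -0.05 (permutation p 0.917, adjusted 0.917) and rho -0.39 (permutation p 0.263, adjusted 0.352), and r -0.22 without those 2. Foxj1 had r -0.17 (permutation p 0.633, adjusted 0.791) and rho -0.53 (permutation p 0.124, adjusted 0.352), and r -0.25 without those 2.

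The 4 VTA libraries with Xist were also the 4 lowest in Ttr. In the 6 others Clic6 had r 0.87 (exact permutation p 0.00556, adjusted 0.0278) and rho 0.83 (exact permutation p 0.0583, adjusted 0.292), and Kcnj13 had r 0.77 (exact permutation p 0.0708, adjusted 0.177) and rho 0.66 (exact permutation p 0.175, adjusted 0.438). Kl had r 0.43 (exact permutation p 0.432, adjusted 0.540) and rho 0.03 (exact permutation p 1, adjusted 1). The sign turned for Otx2, with r 0.41 (exact permutation p 0.556, adjusted 0.556) and rho 0.14 (exact permutation p 0.803, adjusted 1), and for Foxj1, with r 0.39 (exact permutation p 0.369, adjusted 0.540) and rho 0.20 (exact permutation p 0.714, adjusted 1). Low Ttr and the presence of Xist cannot be told apart in the 10 libraries together. The libraries richest in Ttr, in the 10 and in the 6 alike, were SAL-sired 4, 1 and 2, all of one sire group. The permutations took no account of sire group, and its part in these correlations was not tested. Tmem212 was nearly absent from VTA, at 0 to 0.234 CPM, while Foxj1 was at 3.19 to 7.61 CPM and Cfap144 at 1.43 to 3.96 CPM. The choroid plexus list without Ttr had a median correlation of 0.31 in VTA over 15 members with a mean of at least 0.5 CPM, beside 0.08 over all genes with that mean, and of 0.49 beside 0.14 in the 6 libraries without Xist. Levels of the 2 regions come from separate tables and were not tested against each other.

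**Figure D4:**
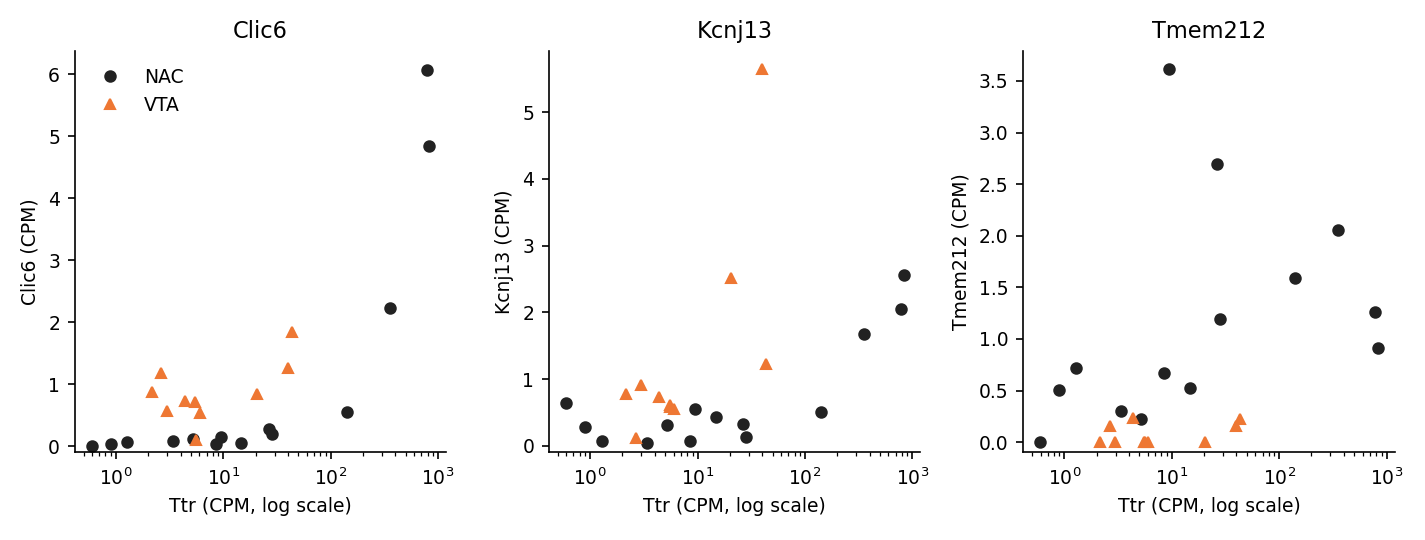
Clic6, Kcnj13 and Tmem212 in CPM against Ttr in CPM on a log axis, with 1 point per library, circles for the 14 NAC and triangles for the 10 VTA libraries. In NAC, Clic6 and Kcnj13 are highest in the 3 libraries with the most Ttr, and Tmem212 is highest at 9.48 CPM of Ttr, while in VTA Tmem212 lies at or near 0.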

How the data were processed

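RNA was measured in bilateral tissue punches of NAC and VTA, with total RNA and a directional library kit per the labels' protocols. The authors deposited estimated counts per gene in 1 table for each region; per the file names these are kallisto abundances (TPM) scaled to each library's total, so CPM computed from them is per length and can be compared between genes. Per the submitters' processing notes, Trim Galore, kallisto and DESeq2 were used, with no versions. No source used here names the build or annotation behind the counts (not given in the sources). All 37403 identifiers matched a RefSeq symbol of assembly GRCr8.

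CPM was count over column sum times 1e6, with no further scaling. Spearman correlations used log2(CPM + 1), and list medians used genes with a mean of at least 0.5 CPM. The sire effect was fitted to rounded counts with edgeR 4.0.16 (quasi-likelihood, TMM, filterByExpr, two-sided, sire group only) in R 4.3.3, with Benjamini-Hochberg adjustment. DESeq2 1.42.0 was an alternative. The difference in Ttr used an exact permutation test, and VTA correlations 100000 permutations (exact enumeration for 6 libraries) in scipy 1.17.1. The steps were tested on simulated data. Library totals of at least 21.9 M make 1 CPM at least 21.9 estimated counts, and no counting interval was computed, since the values are scaled estimates.

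Named genes were Ttr, Folr1, Kl and Aqp1, the members of the 16 lists (in full for choroid plexus and cilia, and up to 4 with the largest absolute correlation for each other list), the 15 highest and 10 lowest correlations with a symbol, and the 15 upward and 10 downward non-overlapping genes with the largest difference. Genes of other lists outside that limit, such as Drd1, Slc17a7, Dcx and Col1a2, and the genes named from the 3 libraries with the most Ttr were chosen after their values were seen. The members, lists and rules were chosen with earlier results of these data known. Replicate numbers did not pair the libraries: same-numbered deviations correlated at -0.26 to 0.10. A few members of the lists are not reported here.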

Additional observations from a re-analysis of the deposited data

Results flagged for a closer look

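In 3 of 54 pairs of a gene and a group, 1 library stood far from the others of its group by Dixon's criterion, where chance gives about 1 in 20. Clic6 was 2.24 CPM in MOR-sired NAC 5, against 0 to 0.546 CPM in the other 6 MOR-sired NAC libraries; this library also held the most Ttr of its group, 357 CPM. Mfrp was 3.88 CPM in SAL-sired VTA 1, against 1.98 to 2.37 CPM in the other 4. Kl was 0.385 CPM in MOR-sired VTA 2, against 0.829 to 0.975 CPM in the other 4.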

How the results depend on the processing

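Ttr between sire groups and the 5 rank correlations in VTA did not pass under the scalings, pseudocount and subsets run, of which libraries 9 to 14 alone (2 against 4) could not have passed for Ttr, while Pearson's r of Clic6 passed in the 6 VTA libraries without Xist (adjusted permutation p 0.0278, against 0.277 in 10). The choice of 6 VTA libraries without Xist, library number subsets and the removal of the 3 or 4 libraries richest in Ttr were chosen after seeing the data. The VTA correlations took no account of sire group. The sire effect gave 0 genes with edgeR under all settings run and 4 with DESeq2 on the same genes. The labels' replicate numbers did not pair the libraries; with the replicate block edgeR again called 0 genes, with 923 at an unadjusted p under 0.05 against 1126, and the difference in Ttr stayed at -1.11.

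Counts along the Ttr order moved most. Higher and lower non-overlapping genes numbered 281 and 320, but 660 and 607 with 3 against 3, 48 and 38 with 5 against 5, 140 and 79 when ordered by Folr1, Kl and Aqp1, and 36 and 15 with the 3 richest against the other 11. The 52 genes at a correlation of at least 0.7 became 84 at a mean of at least 0.1 CPM, 26 at a mean of at least 2 CPM, 28 when ordered by Folr1, Kl and Aqp1, and 174 without the 3 richest libraries. The 36 at or below -0.7 became 21 with TMM scaling, 12 when ordered by Folr1, Kl and Aqp1, 65 on residuals from the sire group means and 401 without the 3 richest. Leaving out each library in turn gave 49 to 159 and 37 to 229 genes, and 0 sire calls each time. Fewer libraries make such limits easier to pass. The choroid plexus median of 0.60, here with Ttr counted, was 0.20 without the 3 richest, 0.12 in libraries 1 to 8 and 0.89 in libraries 9 to 14. The cilia median of 0.33 was 0.13 in MOR-sired libraries alone and -0.0286 in libraries 9 to 14. The cause of these shifts was not tested. In the 10 lower libraries 17 of the 24 choroid plexus transcripts had a median below 1 CPM, which limits what differences among them can show.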
